A study of Mus musculus with 16 samples.

Results

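The genes described here are 10 that carry dietary fat through the enterocyte: Cd36, Fabp1, Fabp2, Mogat2, Dgat1, Mttp, Apob, Apoa1, Apoa4 and Apoc3. They were chosen by symbol from the 24940 genes of a table of RNA-seq read counts, and all 10 were present and passed the low-count filter in every comparison. The 16 libraries came from mouse ileum on a C57BL/6 background, taken 1 cm proximal to the cecum. Both alleles of Bcl6 were floxed in all 16 mice. The LKO mice also carried Alb-cre, which removes Bcl6 from hepatocytes and leaves the gene intact in the intestine by design, and the WT mice were Bcl6 fl/fl without Cre. Both genotypes were sampled in both sexes, with 4 mice in each of the 4 groups. The mice were either fed ad libitum or fasted for 4 hours, but the feeding state and age of each mouse are not given in the sources used here. The comparisons asked how the ileum responded to loss of a hepatic repressor of lipid genes, in each sex. Fat digestion and absorption was among the pathways that the study named from the male libraries analysed here, so these genes are not independent evidence for a direction in males.

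In the small intestine, fatty acids and monoacylglycerol released by pancreatic lipase enter the enterocyte, where fatty acid binding proteins carry them through the cytosol. The monoacylglycerol and diacylglycerol acyltransferases rebuild triacylglycerol on the endoplasmic reticulum, and the microsomal triglyceride transfer protein loads it onto apolipoprotein B to start a chylomicron. Apolipoproteins A-I, A-IV and C-III join the particle before it leaves the cell for the lymph. Most fat is absorbed in the jejunum, and the distal ileum is better known for reclaiming bile acids.

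The sequences before the starts of 3 genes are shown because the results turn on them: Fabp1 and Apob differed between the sexes, and Apoa4 had the widest difference between genotypes. Each is the 250 bases before the RefSeq start on GRCm38.p6 (mm10), 5′ to 3′ on the strand of the gene. RefSeq windows matched 7 of the 10 genes. Capitals mark matches, on either strand, to any of 6 short motifs. The core of the TATA box was searched as TATAAA. A half-site of nuclear receptors was searched as AGGTCA. The motif of GATA factors was searched as AGATAA. The motif of caudal-type homeobox factors was searched as TTTATG. The motif of HNF4 was searched in the form CAAAGTCCA. The core of the cyclic AMP response element was searched as TGACGT.
Fabp1, chr6:71199629-71199878, plus strand: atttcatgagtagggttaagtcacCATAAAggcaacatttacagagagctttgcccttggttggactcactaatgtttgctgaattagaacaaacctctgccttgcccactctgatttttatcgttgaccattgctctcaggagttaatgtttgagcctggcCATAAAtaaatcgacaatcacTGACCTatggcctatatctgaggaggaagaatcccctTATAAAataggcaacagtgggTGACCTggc
Apob, chr12:7977427-7977676, plus strand: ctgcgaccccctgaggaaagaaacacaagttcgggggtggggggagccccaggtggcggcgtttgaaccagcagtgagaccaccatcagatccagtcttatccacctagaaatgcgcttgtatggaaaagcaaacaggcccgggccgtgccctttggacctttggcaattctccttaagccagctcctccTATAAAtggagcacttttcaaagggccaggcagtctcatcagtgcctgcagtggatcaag
Apoa4, chr9:46240594-46240843, plus strand: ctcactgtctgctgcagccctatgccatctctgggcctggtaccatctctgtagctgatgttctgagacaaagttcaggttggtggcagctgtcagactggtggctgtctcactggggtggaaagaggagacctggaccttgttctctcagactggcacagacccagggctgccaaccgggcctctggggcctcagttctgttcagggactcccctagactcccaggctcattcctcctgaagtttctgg
The Fabp1 window held TATAAA 30 to 25 bases before the start, and AGGTCA on the other strand at 67 to 62 and at 9 to 4 bases before it. It also held TTTATG on the other strand at 226 to 221 and at 88 to 83 bases before the start. The Apob window held TATAAA 60 to 55 bases before the start, and the Apoa4 window held none of these letters. Of 32851 windows of the same length in the table, 12.4% held the TATA motif, 14.0% the nuclear receptor half-site, 9.99% the GATA motif, 10.8% the caudal-type motif, 0.384% the HNF4 motif and 6.47% the cyclic AMP motif on either strand. A match describes the letters only, and says nothing of whether a factor binds there.

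Counts assigned to genes ran from 15.7 to 20.5 M in 15 libraries and reached 60.3 M in female LKO replicate 1, and 3 counts corresponded to 0.0497 to 0.191 counts per M counts (CPM). CPM are scaled here with the trimmed mean of M values (TMM). Sex-linked transcripts matched the labelled sex in 16 of 16 libraries. Bcl6 itself was at 15.9 ± 1.61 CPM in male WT, 18.9 ± 2.05 in male LKO, 12.1 ± 2.92 in female WT and 20.7 ± 5.03 in female LKO ileum (SD, n = 4), and since Cre acts in hepatocytes these values do not check the genotype labels. The labelled tissue was borne out by Fabp6, the ileal bile acid binding protein, at 2692 to 5425 CPM and by Slc10a2, the ileal bile acid transporter, at 426 to 816 CPM, with the hepatocyte marker Alb at no more than 3.31 CPM and the pancreatic Pnlip and Cpa1 at 0 counts in all 16. Of the 7 pancreatic acinar markers, Clps, encoding colipase, was at 60.2 to 136.8 CPM, and the others reached no more than 1.70 CPM. Some libraries stood apart in markers of other cells. The summed CPM of 10 B cell markers was 446 in female LKO replicate 3, 236 in female LKO replicate 2, 139 in male WT replicate 2 and 84.6 in female WT replicate 3, against 21.3 to 35.6 in the other 12. The summed CPM of 7 adipocyte markers was highest in female LKO replicate 2 at 314 and in male WT replicate 4 at 292. In bulk tissue, fewer cells of a type and less RNA per cell cannot be told apart.

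Per kilobase of exon, the most abundant of the 10 transcripts was Apoa1, the main protein of high-density lipoprotein and a chylomicron apolipoprotein, with a mean of 2547 RPKM (reads per kilobase of exon per M reads). Fabp2, the intestinal fatty acid binding protein, was next at 1896 RPKM. Apoa1 was above Fabp2 in 16 of 16 libraries, and both were far above the remaining genes. Dgat1, Mttp, Apoa4 and Mogat2 averaged 146, 145, 140 and 133 RPKM, and the order of neighbours among these 4 held in only 8 to 10 of 16 libraries, so they were not separated beyond the spread between mice. Apob followed at 106 RPKM, below Mogat2 in 15 of 16 libraries, then Apoc3 at 29.2 RPKM. Cd36 and Fabp1 were lowest, at means of 9.43 and 8.94 RPKM, and Cd36 exceeded Fabp1 in 10 of 16 libraries. Fabp1, the liver-type fatty acid binding protein, rested on 19 to 290 counts per library and had the widest relative range, with its highest library 12.5 times its lowest in CPM.

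**Figure D1:**
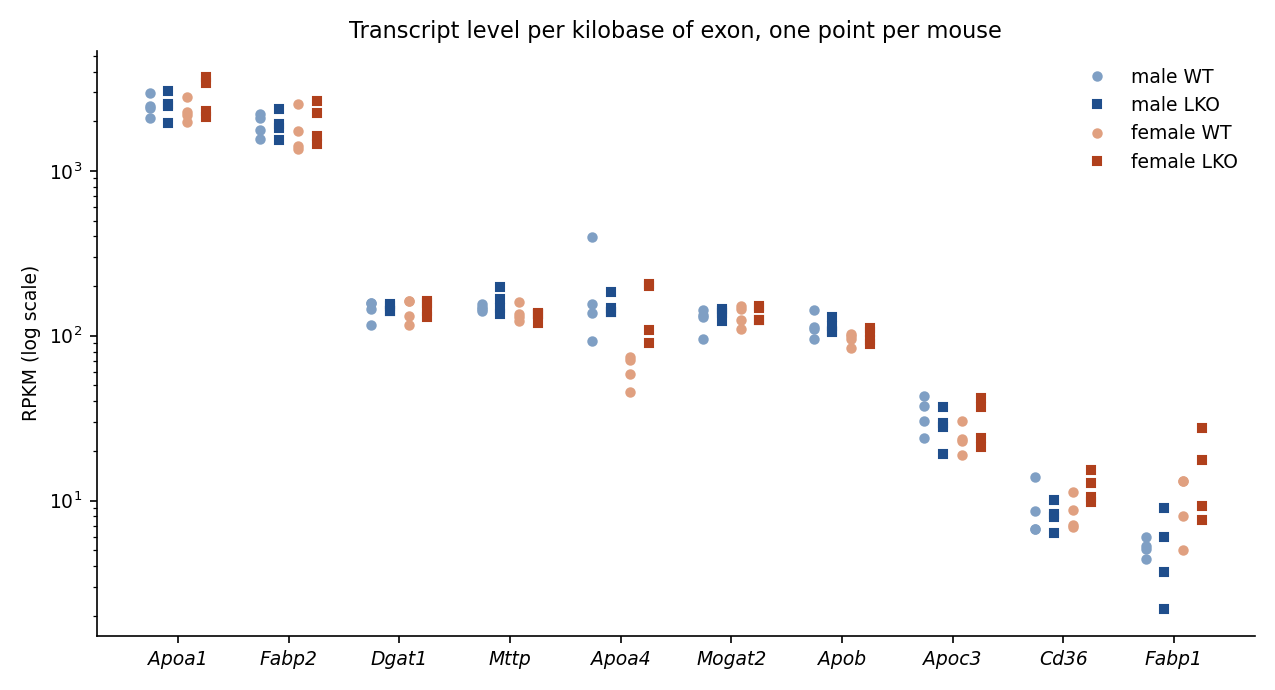
Transcript level of each gene in RPKM on a log scale, 1 point per mouse and 1 colour and shape per group, with genes ordered by mean. Apoa1 and Fabp2 sit above all others in each of the 16 mice, and Cd36 and Fabp1 sit at the bottom.

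In males, none of the 10 genes passed the test between LKO and WT. By the edgeR quasi-likelihood test with Benjamini-Hochberg adjustment over all 15169 genes tested, 0 of 10 passed an adjusted p of 0.05, where 0.0527% of all genes passed. At an unadjusted p under 0.05 the count was also 0 of 10, against 5.29% of all genes, and DESeq2 called 0 of 10 against 0.385%. The groups did not separate for any member, against 2.97% of all genes with no overlap between the 4 LKO and 4 WT mice. The log2 differences lay between −0.36 for Apoa4 and 0.14 for Mttp, with a median of 0.0065 (−0.0020 over all genes).

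In females, 9 of 10 genes were higher in LKO than WT by sign, with a median log2 difference of 0.25 against 0.0070 over all 15298 genes, but 0 of 10 passed the adjusted threshold in edgeR, where 0.0392% of all genes passed. Apoa4 and Cd36 were the 2 members at an unadjusted p under 0.05, against 11.7% of all genes. Apoa4 was the 1 member whose groups did not overlap, a pattern seen in 6.31% of all genes. DESeq2 called 1 of 10, Apoa4, against 1.02% of all genes. The 2 female LKO libraries richest in B cell markers, replicates 2 and 3, were also the highest 2 of their group for Apoa4, Fabp1, Fabp2, Mogat2, Dgat1, Apob, Apoa1 and Apoc3. Without them and the other 2 B cell-rich libraries, a choice made after seeing the data, the sign turned negative in females for Fabp1, Fabp2, Mogat2, Dgat1, Apob, Apoa1 and Apoc3, while Apoa4 and Cd36 stayed higher and Mttp lower in LKO. That left LKO replicates 1 and 4 and WT replicates 1, 2 and 4. For every gene but Cd36 and Mttp it took out the highest 2 LKO values, so a lower LKO mean was fixed by the choice.

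**Figure D2:**
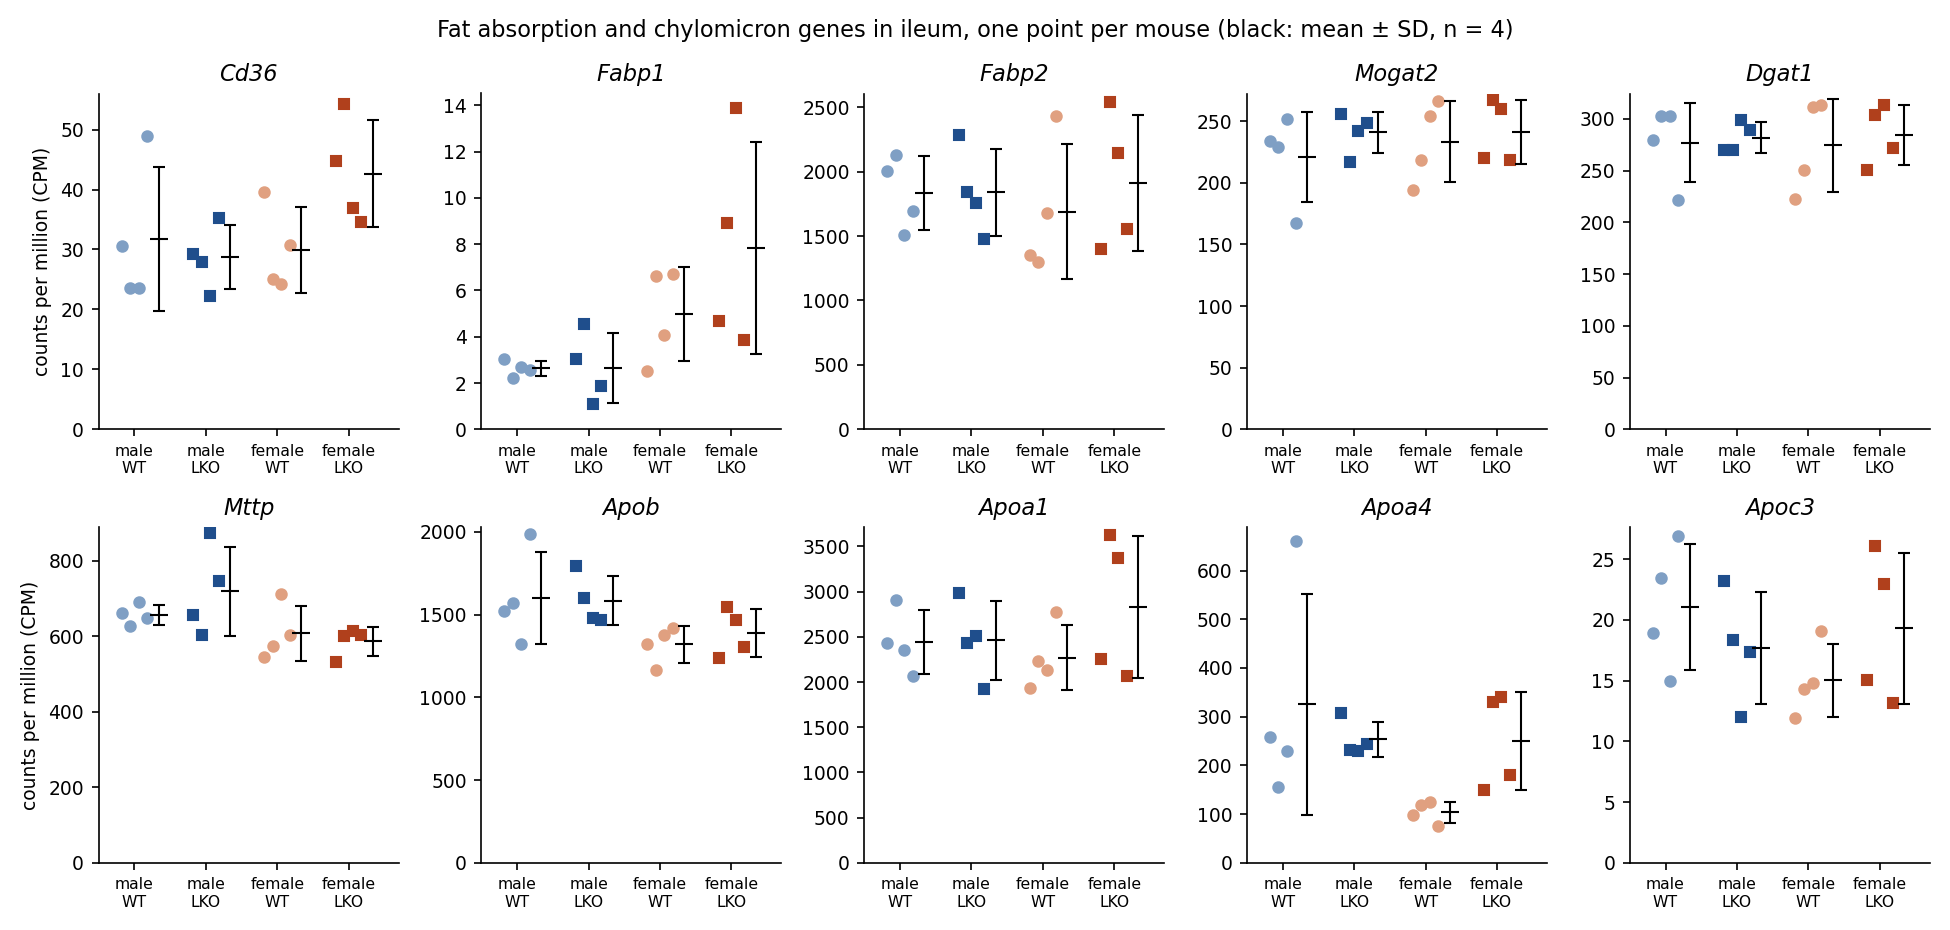
CPM of each of the 10 genes in each of the 16 libraries, with the group mean ± SD in black (n = 4) and every axis starting at 0. The 4 female LKO mice all lie above the 4 female WT mice for Apoa4 (149.6 CPM or more against 124.2 or less), and male WT replicate 4 stands at 660 CPM.

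Cd36 encodes a fatty acid translocase of the brush border that is also abundant in adipocytes and capillary endothelium. Its level was 30.6, 23.5, 23.6 and 49.0 CPM in the male WT mice and 29.2, 28.0, 22.3 and 35.3 in the male LKO mice. In females it was 39.7, 25.0, 24.3 and 30.8 CPM in WT and 44.8, 54.3, 37.0 and 34.6 in LKO. In females 2 of 4 LKO values were above the WT range and the other 2 within it, while in males the highest value was a WT mouse. The log2 difference was 0.51 ± 0.19 (SE) in females, 1.43-fold, with an edgeR p of 0.0273 and an adjusted p of 0.367. In males it was −0.14 ± 0.27 (edgeR adjusted p = 0.999), and 0.15 without male WT replicate 4. Over all its alternatives the female adjusted p stayed between 0.142 and 0.846.

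The Cd36 level followed the adipocyte markers (Adipoq, Plin1, Plin4, Cidec, Cfd, Lep and Retn) from library to library. Across the 16 libraries, on the log2 scale, Pearson's r between Cd36 and the summed CPM of the 7 markers was 0.94 and Spearman's rho 0.95, each with a permutation p of 1e-05, the smallest that 100000 permutations can give, and adjusted p of 0.0004 and 0.0002 over 40 such relations. The r was 0.88 without the 2 libraries farthest from the median and 0.93 after subtracting group means, and it was 0.95 within the 8 males and 0.91 within the 8 females. All 7 markers were detected in all 16 libraries, and their summed level was 96.9 to 292 CPM in male WT, 84.3 to 135 in male LKO, 96.1 to 166 in female WT and 148 to 314 in female LKO. None of the 7 passed the adjusted threshold for genotype in males or in females, with median log2 differences of −0.51 and 0.83. Cidec, a lipid droplet protein, is also made by the small intestine. The part of adipocyte RNA in the Cd36 difference was not tested.

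**Figure D3:**
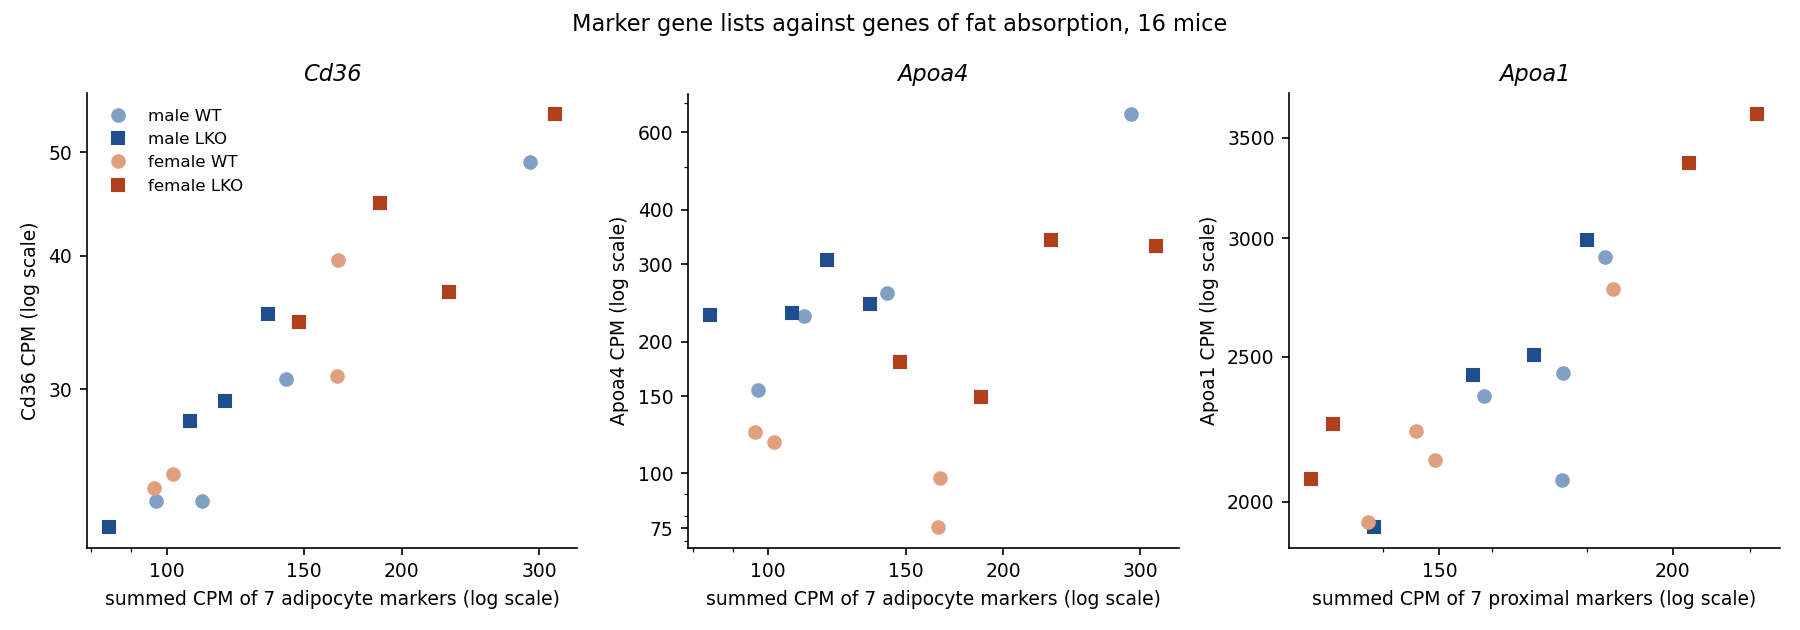
CPM of Cd36, Apoa4 and Apoa1 on log axes against the summed CPM of a marker list (7 adipocyte or 7 proximal small intestine markers), 1 point per mouse. Cd36 rises with the adipocyte markers in mice of every group (r = 0.94 over 16). For Apoa4 such a relation does not hold over all 16 (r = 0.43), and Apoa1 rises with the proximal markers (r = 0.88).

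Fabp1 and Fabp2 bind fatty acids in the enterocyte cytosol. Fabp1 is characteristic of the proximal intestine and liver, and in these ileal samples it was at 3.03, 2.23, 2.70 and 2.57 CPM in male WT and 3.05, 4.54, 1.11 and 1.86 in male LKO. In females it was at 2.53, 6.61, 4.06 and 6.69 CPM in WT and 4.69, 8.92, 13.9 and 3.88 in LKO. The genotype groups overlapped in both sexes. The female LKO difference of 0.63 ± 0.49 (SE, log2; edgeR adjusted p = 0.624) turned to −0.28 without the 4 B cell-rich libraries, and the male one was 0.0021 ± 0.33 (edgeR adjusted p = 1.00). Fabp2 ranged from 1507 to 2127 CPM in male WT, 1476 to 2287 in male LKO, 1295 to 2429 in female WT and 1401 to 2538 in female LKO, and the ranges overlapped throughout. Its log2 differences were 0.011 ± 0.14 in males and 0.18 ± 0.27 in females (SE; edgeR adjusted p = 0.999 and 0.821).

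Mogat2 and Dgat1, the acyltransferases that build diacylglycerol and triacylglycerol, showed small differences. The mean of Mogat2 in males was 221 ± 36.6 CPM in WT and 241 ± 16.9 in LKO, and in females 233 ± 33.0 in WT and 241 ± 26.0 in LKO (SD, n = 4). That of Dgat1 in males was 277 ± 38.3 CPM in WT and 282 ± 14.7 in LKO, and in females 274 ± 45.1 in WT and 285 ± 29.1 in LKO (SD, n = 4). Of the 4 genotype differences within a sex, the largest was 0.13 ± 0.11 (SE, log2) for Mogat2 in males, at an edgeR adjusted p of 0.999. The lowest library for both genes was male WT replicate 4, at 168 CPM for Mogat2 and 222 for Dgat1, where Cd36, Apob, Apoa4 and Apoc3 were the highest of their group.

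Mttp, which transfers lipid onto apolipoprotein B, was at 661, 627, 690 and 647 CPM in male WT and 656, 603, 872 and 746 in male LKO. It was at 545, 574, 711 and 603 CPM in female WT and 530, 601, 614 and 603 in female LKO. The LKO and WT ranges overlapped in both sexes, with log2 differences of 0.14 ± 0.098 in males and −0.051 ± 0.086 in females (SE; edgeR adjusted p = 0.999 and 0.839).

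Apob, the structural protein of the chylomicron, was at 1521, 1573, 1322 and 1989 CPM in male WT and 1793, 1600, 1483 and 1466 in male LKO. In female WT it was at 1324, 1165, 1378 and 1419 CPM and in female LKO at 1238, 1547, 1467 and 1305. Again neither genotype pair separated, and the log2 differences were −0.0084 ± 0.11 and 0.073 ± 0.088 in males and females (SE; edgeR adjusted p = 0.999 and 0.766). In enterocytes the Apob transcript is edited to the shorter apoB-48 form, which gene counts do not show.

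Apoa1, Apoc3 and Apoa4 lie together on chromosome 9 (mm10), at 46228630 to 46230469 on the plus strand, 46233050 to 46235299 on the minus strand and 46240844 to 46243458 on the plus strand. Apoa1 and Apoc3 are 2580 bases apart, and Apoc3 and Apoa4 5544. Apoa1 was at 2068 to 2912 CPM in male WT, 1924 to 2989 in male LKO, 1939 to 2774 in female WT and 2071 to 3629 in female LKO. Apoc3, which slows the clearance of triglyceride-rich particles, was at 15.01 to 26.9, 11.98 to 23.2, 11.9 to 19.1 and 13.1 to 26.1 CPM in the same order. Neither gene separated the genotypes in either sex. In females their log2 differences were 0.32 ± 0.20 and 0.35 ± 0.24 (SE; edgeR adjusted p = 0.549 and 0.578), and in males 0.017 ± 0.13 and −0.24 ± 0.22 (edgeR adjusted p = 0.999 for both).

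Apoa4, an apolipoprotein that is induced by fat feeding and acts as a satiety signal, gave the widest difference of the 10. Female WT mice were at 97.6, 118, 124 and 75.4 CPM and female LKO mice at 149.6, 330, 341 and 179.6. All 4 female LKO mice were above all 4 female WT mice. The log2 difference was 1.27 ± 0.33 (SE), 2.41-fold, with an edgeR p of 0.00701 and an adjusted p of 0.295, and DESeq2 gave an adjusted p of 0.0199. Across the edgeR alternatives the adjusted p was 0.0697 at its lowest, with replicate number as a block, and 0.574 at its highest. Without the B cell-rich libraries, which include the highest female LKO mice, replicates 2 and 3, the difference was 0.76 (edgeR adjusted p = 0.558). Without female LKO replicate 3 it was 1.08.

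Male WT mice were at 258, 155, 229 and 660 CPM and male LKO mice at 307, 232, 230 and 244. One WT mouse, replicate 4, lay above all others and set the direction in males. The log2 difference of −0.36 ± 0.46 (SE; edgeR adjusted p = 0.999) became 0.25 without it. The difference between the sexes in the genotype effect was −1.63 ± 0.58 for male minus female (SE, log2), with an edgeR p of 0.0158 and an adjusted p of 0.845, and −1.02 without male WT replicate 4. Apoa4 was the 1 of 10 members at an unadjusted p under 0.05 in this interaction, against 5.64% of 15598 genes, and 0 of 10 passed the adjusted threshold in edgeR or DESeq2, against 0% of all genes in edgeR. The 4 female WT mice held the lowest 4 Apoa4 values of the 16.

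**Figure D4:**
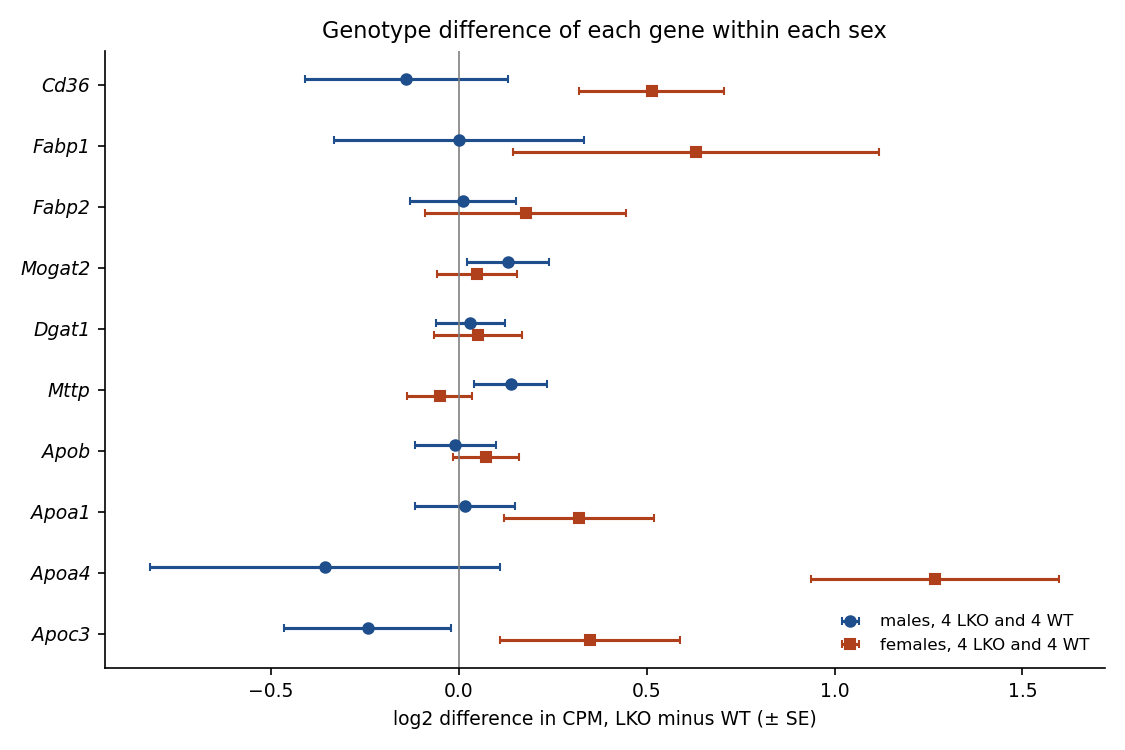
Log2 difference between LKO and WT ± SE for each gene, in 4 against 4 males (blue circles) and 4 against 4 females (red squares). Apoa4 in females stands farthest from 0 at 1.27, and the male values lie between −0.36 and 0.14.

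Apoa4 was also at its highest where adipocyte markers were high, in male WT replicate 4 and in female LKO replicates 2 and 3, but the relation did not hold over all 16 libraries. Its pooled r with the adipocyte list was 0.43 and fell to 0.0015 without the 2 farthest libraries, while within the 8 males it was 0.90 and within the 8 females 0.65. With the B cell list its r was −0.55 within males and 0.86 within females. Each of the male r values includes 1 library far from the rest. For the adipocyte list this was male WT replicate 4, at 292 CPM of markers and 660 of Apoa4. No other male passed 142 CPM of these markers or 307 of Apoa4. For the B cell list it was male WT replicate 2, at 139 CPM of markers and 155 of Apoa4, and no other male passed 30.5 CPM of B cell markers. The female r with the B cell list rests largely on LKO replicates 2 and 3, at 236 and 446 CPM of markers. No other female passed 84.6 CPM of these markers, and both libraries are LKO, so genotype enters that r. None of 8 tested B cell markers passed the adjusted threshold in females by edgeR, with a median log2 difference of 2.21, and the summed level ran from 28.6 to 84.6 CPM in female WT and from 35.2 to 446 in female LKO. Their part in the Apoa4 difference was not tested.

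With the sexes combined and sex as a covariate, all 10 genes were higher in LKO by sign, with a median of 0.089 on the log2 scale against 0.00065 over all genes. The differences ran from 0.029 for Apob to 0.45 ± 0.37 (SE) for Apoa4. By edgeR, 0 of 10 passed the adjusted threshold against 0.269% of 15598 genes, and 0 of 10 an unadjusted p under 0.05 against 11.2%. DESeq2 called 0 of 10 against 1.45%. Without the B cell-rich libraries Cd36, Fabp1, Fabp2, Apob, Apoa4 and Apoc3 turned negative. For each of these genes but Cd36, that choice took out the highest female LKO values, those of replicates 2 and 3. A lower female LKO mean was thus fixed by the choice. The summed CPM of the 10 genes was 7411 ± 530 in male WT, 7432 ± 895 in male LKO, 6549 ± 1005 in female WT and 7562 ± 1622 in female LKO (SD, n = 4), and its ranges of 6697 to 7975, 6447 to 8614, 5727 to 7936 and 6106 to 9306 CPM overlapped.

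Between the sexes, 2 of 10 genes passed the adjusted threshold, where 11.0% of 15598 genes did (875 higher and 848 lower in males), a count too small to set the share among these genes apart from the background. Fabp1 was lower in males by edgeR, with a log2 difference of −1.24 ± 0.33 (SE; adjusted p = 0.0285), that is 2.64 ± 1.00 CPM in males against 6.41 ± 3.63 in females (SD, n = 8). Male values reached 4.54 CPM and female values began at 2.53, so the sexes overlapped. The call was lost without male LKO replicate 1, 3 or 4 or female WT replicate 2 in turn (edgeR adjusted p = 0.0538, 0.0507, 0.0508 and 0.0552). It was also lost without the 4 B cell-rich libraries, where the difference was −0.83 (edgeR adjusted p = 0.115). Those libraries, chosen after seeing the data, include female LKO replicates 2 and 3, which held the highest Fabp1 values of all mice. The choice itself therefore lowered the female mean.

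Apob was higher in males, by 0.23 ± 0.074 (SE, log2; edgeR adjusted p = 0.0471), a 1.18-fold difference between ranges of 1322 to 1989 and 1165 to 1547 CPM. Leaving out any of 13 of the 16 libraries ended that call, and over all 16 omissions the edgeR adjusted p ran from 0.0249 to 0.101. Mttp, at 0.20 ± 0.070 (SE, log2), stood at an edgeR adjusted p of 0.0667, at 0.0281 with replicate number as a block and at 0.0484 without the 4 B cell-rich libraries. Apoa4 was at 0.83 ± 0.37 (SE, log2; edgeR adjusted p = 0.158), and at 0.49 without male WT replicate 4. DESeq2 called Fabp1, Apob and Mttp (adjusted p = 0.00471, 0.0210 and 0.0461), against 15.9% of all genes.

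The tissue markers also differed between the sexes. Against the 11.0% of all genes called between the sexes by edgeR, 6 of 10 epithelial markers were higher in males, with a summed 22004 to 24175 CPM in males and 18937 to 22275 in females. Of 6 smooth muscle markers, 5 were lower in males, with a summed 2766 to 3597 CPM against 3523 to 5421. Scaling by the epithelial markers moved the median of all genes to −0.16 (log2, males minus females), with 67 genes higher and 4545 lower. On that scale Apob was at 0.079 (edgeR adjusted p = 0.456) and Mttp at 0.047 (edgeR adjusted p = 0.632), above the shifted median, and Fabp1 at −1.41 (edgeR adjusted p = 0.00943), below it. Mogat2 was called lower in males on that scale alone of those tried, at −0.20 (edgeR adjusted p = 0.0440), close to the shifted median. Upper-quartile scaling moved the split of calls to 424 higher and 1197 lower, and Apob to an adjusted p of 0.0816. The r between Fabp1 and the smooth muscle markers was 0.67 within males and 0.61 within females, on the log2 scale over 8 libraries each. It was picked from 40 relations of members to marker lists, and no test of it within a sex is given here. The part of tissue composition in the sex differences was not tested.

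**Figure D5:**
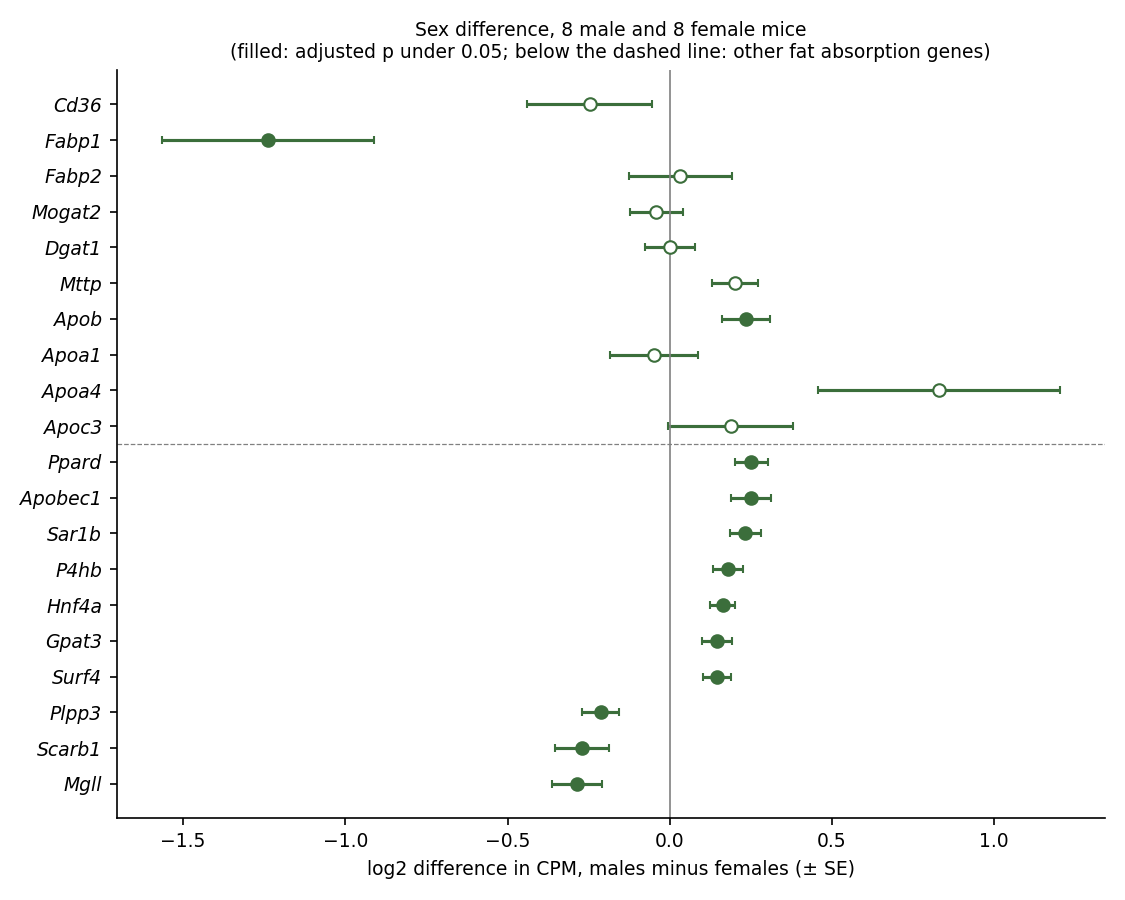
Log2 difference between 8 males and 8 females ± SE, for the 10 genes and, below the dashed line, for the 10 other fat absorption genes past an adjusted p of 0.05 in edgeR (filled points). Fabp1 at −1.24 is the farthest from 0, and the differences of the other filled genes lie between −0.29 and 0.25.

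A wider list of 48 genes placed the 10 in their pathway: uptake and activation, re-esterification, other apolipoproteins, particle assembly, lipid droplets and lipases, and transcriptional regulators. Of these, 46 were tested, and Mogat1 and Apoa5 were too low, at no more than 14 and 3 counts in any library. For genotype, edgeR called 0 of 46 in males, 0 of 46 in females and 1 of 46 with the sexes combined, against 0.0527%, 0.0392% and 0.269% of all genes. At an unadjusted p under 0.05 the counts were 6, 10 and 10 of 46, against 5.29%, 11.7% and 11.2% of all genes. The LKO and WT groups did not overlap for 2 of 46 in males and 4 of 46 in females, against 2.97% and 6.31% of all genes. The median log2 differences were 0.043, 0.072 and 0.055, against −0.0020, 0.0070 and 0.00065 over all genes. DESeq2 called 1 of 46 in males (Agpat2), 2 in females (Dgat2 and Creb3l3) and 3 combined (Creb3l3, Agpat2 and A1cf), against 0.385%, 1.02% and 1.45% of all genes.

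The single call was Agpat2, an acyltransferase that makes phosphatidic acid for triacylglycerol. It was at 265, 241, 246 and 252 CPM in male WT and 317, 296, 304 and 293 in male LKO. In females it was at 195, 235, 215 and 285 CPM in WT and 279, 331, 282 and 271 in LKO. The male groups did not overlap, and in females only WT replicate 4 reached the LKO range. The combined log2 difference was 0.30 ± 0.062 (SE; edgeR adjusted p = 0.0474), 1.23-fold, with 0.27 in males and 0.32 in females. Leaving out any of 14 of the 16 libraries ended the call, as did leaving out the B cell-rich libraries (0.23; edgeR adjusted p = 0.373), and DESeq2 gave an adjusted p of 0.00382.

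Among the other genes with the widest genotype differences, Creb3l3, a membrane-bound transcription factor of enterocytes and hepatocytes that drives Apoa4, stood at 58.2, 67.1, 63.6 and 79.0 CPM in female WT and 93.9, 136, 110 and 85.3 in female LKO. The female groups did not overlap. The log2 difference was 0.66 ± 0.15 (SE), with an edgeR p of 0.00162, an edgeR adjusted p of 0.206 and a DESeq2 adjusted p of 0.00173, and in males it was 0.21 ± 0.095 (SE; edgeR adjusted p = 0.917). Dgat2, the second diacylglycerol acyltransferase, was 102 ± 4.75 CPM in female WT and 139 ± 26.0 in female LKO (SD, n = 4), without overlap. Its log2 difference was 0.45 ± 0.11 (SE; edgeR adjusted p = 0.227), and DESeq2 gave an adjusted p of 0.0263. A1cf, a cofactor of Apob editing, was lower in LKO by sign in both sexes, at −0.22 ± 0.089 in males and −0.32 ± 0.096 in females (SE, log2; edgeR adjusted p = 0.873 and 0.288). Its groups did not overlap in females but did in males. Combined, A1cf was at −0.27 ± 0.068 (SE; edgeR adjusted p = 0.0958), with an adjusted p of 0.0229 in DESeq2 and 0.0301 in edgeR with epithelial marker scaling, where the difference was −0.34. Hnf4g, an enterocyte transcription factor, was at −0.35 ± 0.11 in females and −0.080 ± 0.087 in males (SE; edgeR adjusted p = 0.311 and 0.999). Without the 4 B cell-rich libraries the female differences were smaller, at 0.40 for Creb3l3, 0.23 for Dgat2 and −0.23 for Hnf4g (edgeR adjusted p = 0.523, 0.574 and 0.846). The highest female values of Creb3l3 and of Dgat2 were those of the B cell-rich LKO replicates 2 and 3.

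Other named genes did not pass the test. In males the phosphatidate phosphatase Lpin1 was at −0.38 ± 0.12 (SE, log2; edgeR adjusted p = 0.631). Apoc2, the activator of lipoprotein lipase, was at 0.85 ± 0.46 in males (SE; edgeR adjusted p = 0.999), where male LKO replicate 3 reached 51.0 CPM and the other 7 mice 9.70 to 19.9. With the sexes combined Apoc2 was at 0.53 ± 0.32 (SE; edgeR adjusted p = 0.582), and without male LKO replicate 3 the difference was 0.29 in males and 0.25 combined. Apoa2 in males was at 0.29 ± 0.19 (SE; edgeR adjusted p = 0.999).

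Between the sexes, 10 of 46 genes of the wider list passed in edgeR, 7 higher and 3 lower in males, against the 11.0% of all genes. Of 12 particle assembly genes, 4 were higher in males: P4hb, the smaller subunit of the Mttp complex, Sar1b and Surf4, which carry chylomicron cargo out of the endoplasmic reticulum, and Apobec1, which edits Apob. Their log2 differences were 0.18, 0.23, 0.15 and 0.25 (edgeR adjusted p = 0.0206, 0.00758, 0.0361 and 0.0167). The regulators Ppard and Hnf4a were higher by 0.25 and 0.16 (edgeR adjusted p = 0.00601 and 0.0126) and Gpat3 by 0.15 (0.0489). Mgll, Scarb1 and Plpp3, a lipase, a lipoprotein receptor and a lipid phosphatase, were lower in males, at −0.29, −0.27 and −0.21 (edgeR adjusted p = 0.0262, 0.0429 and 0.0242). With epithelial marker scaling 0 of these 7 genes remained higher past the threshold, Surf4 and Gpat3 were at −0.011 and −0.0075, both above the median of all genes, which that scaling moved to −0.16, and Mgll, Scarb1 and Plpp3 stayed lower. Leaving out 1 library in turn ended the call for Gpat3 in 12 of 16 cases, for Scarb1 in 11, for Surf4 in 10, for Mgll in 4 and for Plpp3 in 1, and for the other 5 genes in 0. The interaction called 0 of 46 in edgeR, against 0% of all genes.

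Within groups, the r between pairs of the 10 genes ran from −0.59 to 0.91. Over the 16 libraries, each taken as its log2 deviation from its group mean, the median r of the 45 pairs was 0.32 and 17 pairs were above 0.5. No such share over pairs of all genes is given here, so these counts do not set the 10 apart from other genes. Permuting libraries within groups, 3 of 45 pairs passed an adjusted p of 0.05. These were Mogat2 and Dgat1 (r = 0.91, rho = 0.86, r = 0.83 without the 2 farthest libraries, adjusted permutation p = 0.0308 for r and 0.0358 for rho), Fabp2 and Apoa1 (r = 0.86, rho = 0.84, r = 0.82 without the 2 farthest, adjusted permutation p = 0.0274 and 0.0358), and Apob and Apoc3 (r = 0.79, rho = 0.79, r = 0.76 without the 2 farthest, adjusted permutation p = 0.0322 and 0.0358). Cd36 ran the other way from the acyltransferases, at −0.59 with Dgat1, which shrank to −0.20 without the 2 farthest libraries. Mttp was the least tied to the mean of the 10, at an r of 0.0050, and Apoc3 the most, at 0.91. That mean includes the gene itself, and genes with a wide spread weigh more in it.

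Part of this spread followed markers of the proximal small intestine (Gata4, Lct, Rbp2, Cyp2b10, Slc2a2, Adh6a and Khk). Across the 16 libraries, on the log2 scale, the r between their summed CPM and Apoa1 was 0.88 (rho = 0.84, permutation p = 2e-05 and 0.00014, adjusted p = 0.0004 and 0.00187), and 0.83 without the 2 farthest libraries. For Fabp2 the r was 0.87 (rho = 0.89, permutation p = 3e-05 and 1e-05, adjusted p = 0.0004 and 0.0002), and 0.87 without the 2 farthest. For Apoc3 it was 0.76 (rho = 0.76, permutation p = 0.0008 and 0.00106, adjusted p = 0.0064 and 0.0106), and 0.68 without the 2 farthest. Libraries were permuted here without regard to group, so these p-values also take in differences between groups. Within the 8 males the r values were 0.73, 0.79 and 0.45 for Apoa1, Fabp2 and Apoc3, and within the 8 females 0.95, 0.90 and 0.95. The summed level was 159 to 184 CPM in male WT, 138 to 180 in male LKO, 137 to 186 in female WT and 128 to 222 in female LKO, and none of the 4 markers tested in each sex passed for genotype. It was highest in female LKO replicates 2 and 3, at 222 and 204 CPM. Both are among the B cell-rich libraries, so leaving those out also took out the highest proximal levels. Most of the summed level came from Rbp2 (59.8 to 125 CPM) and Khk (50.7 to 91.7 CPM), while Cyp2b10 was at 0 in 4 libraries and Lct reached no more than 0.658 CPM. Whether the sampled position along the ileum varied between mice was not tested.

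The genes most like the 10 were then ranked over 14413 others by the r between a gene's deviations and the mean deviation of the 10, over 16 libraries. The leading 5 were Rbp2 (r = 0.92), a retinol binding protein of enterocytes, Gmip (0.90), Krt23 (0.90), Creb3l3 (0.89) and the copper transporter Atp7b (0.88). The mean deviation itself was highest in female LKO replicates 2 and 3, at 0.30 and 0.26, and lowest in female LKO replicates 4 and 1, at −0.29 and −0.27, so the spread was widest within that group. These values are a description, and Rbp2 is also in the list of proximal markers.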

How the data were processed

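Poly(A) RNA of 16 ileum samples was made into stranded libraries and sequenced as single-end reads. Alignment by the authors used STAR 2.5.2 and mm10, with 1 mapping position and at most 4 mismatches per read, and HOMER 4.10 then counted exonic reads with no normalization. The deposited values are these raw read counts for 24940 genes, with isoforms condensed. The annotation version and the strand option are not given in the sources used here, so overlapping genes on opposite strands may share reads. Depth was 15.7 to 60.3 M counts per sample (median 18.1), and all pairs of replicates differed by more than sampling noise. The labels do not say how mice were housed or matched.

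Counts were tested in R 4.3.3 with edgeR 4.0.16 (TMM, filterByExpr, robust quasi-likelihood F-test, Benjamini-Hochberg over all genes, threshold 0.05), for 5 contrasts: genotype in each sex (8 libraries each), genotype with sex as a covariate, sex with genotype as a covariate, and their interaction (16 libraries). The scripts were checked on simulated counts. Alternatives were DESeq2 1.42.0, other scalings and filters, other fits, and leaving out libraries. CPM are TMM-scaled, and RPKM are CPM per kilobase of the exon length in the table. Correlations used 100000 permutations in Python 3.11.15 and scipy 1.17.1. Libraries were permuted within groups for pairs of members, and without regard to group for members against marker lists. The 10 members, the wider list and the 15 marker lists were chosen with earlier results of these data known. Genes of the wider list are named if past the threshold or among the 2 highest and 2 lowest log2 differences of a genotype or sex contrast, with a mean of at least 1 CPM. Upstream sequences came from RefSeq on GRCm38.p6.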

Additional observations from a re-analysis of the deposited data

Results flagged for a closer look

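Among the 40 sets of 4 values (10 genes in 4 groups), 1 held a sample set apart from the other 3 by Dixon's test. Mttp in female LKO replicate 1 was at 530 CPM, below 601, 614 and 603 CPM in the other 3 female LKO mice. About 1 set in 20 is set apart in this way by chance, or 2 of 40. That library was also the deepest of the 16, at 60.3 M counts.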

How the results depend on the processing

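Of the comparisons of the 10 genes, the absence of genotype calls in males, with the sexes combined and in the interaction held under every alternative run, and in females under all but DESeq2, which called 1 gene (Apoa4). The 2 sex calls became 1 with upper-quartile scaling, with at least 10 counts in every library, with the non-robust fit and without the 4 B cell-rich libraries (Fabp1 in the first 3 and Mttp in the last), 0 with the number in the sample title as a covariate, and 0 to 2 when leaving out 1 library in turn. For the wider list, DESeq2 called 1 gene in males (Agpat2), 2 in females (Dgat2 and Creb3l3) and 3 with the sexes combined (Creb3l3, Agpat2 and A1cf), against 0.385%, 1.02% and 1.45% of all genes. The single combined call became 2 with epithelial marker scaling and 0 with the non-robust fit, the replicate block, the title number or without the B cell-rich libraries, and 0 to 2 when leaving out 1 library in turn. The 10 sex calls of that list became 3 with the title number as a covariate and ran from 6 to 13 when leaving out 1 library in turn. The cause was not tested in any of these changes. In males every WT title number was below every LKO title number, so this covariate ran together with genotype. In females the title numbers of the genotypes overlapped. Over all mice the lowest title numbers were female and the highest male, so the covariate also ran in part with sex. Calls lost with it, here and below, therefore cannot separate an effect of title number from one of genotype or sex.

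Across all genes, DESeq2 called 63 against 8 in males, 154 against 6 in females and 223 against 42 with the sexes combined. In edgeR with no filter the count was 25 in males and 15 in females. Epithelial marker scaling gave 21 in females, 165 combined and 4612 against 1723 between the sexes, the newer quasi-likelihood method 10 in females, and the title number 3 in males, 2 combined and 326 between the sexes. Without the B cell-rich libraries the counts were 2 in females, 5 combined and 897 between the sexes. Leaving out 1 library in turn gave 5 to 29 in males, 0 to 4 in females, 5 to 102 combined, 934 to 1956 between the sexes and 0 to 1 in the interaction. The replicate block gave 16 genes in males, 15 in females, 16 combined, 1699 between the sexes and 0 in the interaction. The replicate numbers were not used to pair mice, since same-numbered LKO and WT libraries correlated between −0.17 and 0.31 in their deviations, and only 3 of 8 correlated best with their own number. With the block, Apoa4 in females stood at an edgeR adjusted p of 0.0697 and Apob between the sexes at 0.0673.

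With epithelial marker scaling, the log2 differences that changed sign were in males Fabp1 at −0.052, Fabp2 at −0.044, Dgat1 at −0.015 and Apoa1 at −0.036, in females Mogat2 at −0.017 and Dgat1 at −0.010, with the sexes combined Dgat1 at −0.013, Mttp at −0.015, Apob at −0.033 and Apoc3 at −0.012, between the sexes Fabp2 at −0.12, Gpat3 at −0.0075 and Surf4 at −0.011. With the number in the sample title as a covariate, the log2 differences that changed sign were in males Apob at 0.058, in females Fabp2 at −0.043, Mogat2 at −0.043, Dgat1 at −0.061 and Apob at −0.00081, with the sexes combined Dgat1 at −0.057, Mttp at −0.075 and Apob at −0.00034, between the sexes Fabp2 at −0.021. Without the 4 B cell-rich libraries (chosen after seeing the data), the log2 differences that changed sign were in males Fabp1 at −0.065, in females Fabp1 at −0.28, Fabp2 at −0.20, Mogat2 at −0.049, Dgat1 at −0.0090, Apob at −0.037, Apoa1 at −0.10 and Apoc3 at −0.092, with the sexes combined Cd36 at −0.011, Fabp1 at −0.18, Fabp2 at −0.031, Apob at −0.029, Apoa4 at −0.038 and Apoc3 at −0.15, between the sexes Mogat2 at 0.031, Dgat1 at 0.066 and Apoa1 at 0.075, in the interaction Fabp1 at 0.22, Fabp2 at 0.28, Dgat1 at 0.080, Apob at 0.014 and Apoa1 at 0.21. Fabp1 in males, at 0.0021, also changed sign with upper-quartile scaling (−0.0062), no filter (−0.0025), at least 10 counts in every library (−0.0023), the newer quasi-likelihood method (−0.0027) and the replicate block (−0.11). Between the sexes Dgat1 changed sign with DESeq2 (0.0022), RLE scaling (0.00028) and the replicate block (0.0040), and Fabp2 with upper-quartile scaling (−0.0031), while Apob in males changed with the replicate block (0.0032). Leaving out 1 library in turn moved across 0 the log2 differences in males Cd36 from −0.26 to 0.15, Fabp1 from −0.38 to 0.25, Fabp2 from −0.11 to 0.10, Dgat1 from −0.064 to 0.078, Apob from −0.089 to 0.11, Apoa1 from −0.087 to 0.12 and Apoa4 from −0.58 to 0.25, in females Mogat2 from −0.030 to 0.12, Dgat1 from −0.037 to 0.12 and Mttp from −0.10 to 0.035, with the sexes combined Dgat1 from −0.0065 to 0.067, Mttp from −0.015 to 0.083, Apob from −0.0034 to 0.084 and Apoc3 from −0.054 to 0.14, between the sexes Fabp2 from −0.026 to 0.13, Mogat2 from −0.079 to 0.011, Dgat1 from −0.046 to 0.040 and Apoa1 from −0.10 to 0.027, in the interaction Mogat2 from −0.031 to 0.16, Dgat1 from −0.12 to 0.066 and Apob from −0.17 to 0.036. None of these differences that changed sign passed the threshold in the main comparison except Gpat3 and Surf4 between the sexes.

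Fabp1 had the fewest counts of the 10, at 19 to 290 per library. With 4 mice per group the SE of the log2 difference within a sex ran from 0.086 for Mttp in females to 0.49 for Fabp1 in females.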

Other observations

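Several further marker lists describe the tissue in which the 10 genes were measured. Of 6 Paneth cell markers, 3 were higher in male LKO than male WT by edgeR, against 0.0527% of all genes called, with a median log2 difference of 0.46, and 0 of 6 passed in females, where the median was 0.15. In the interaction by edgeR 0 of 6 passed, but so did 0 of all 15598 genes, so it does not settle whether the sexes differ in this. Of 11 absorptive enterocyte markers (brush border enzymes and carriers), 0 passed for genotype in either sex, with medians of −0.081 in males and −0.061 in females. Of 6 distal ileum markers, 0 passed in either sex, with medians of 0.11 and 0.029. The 7 goblet, 6 endothelial and 5 macrophage markers also gave 0 calls for genotype in either sex. The same held for the 10 epithelial, 6 T cell, 7 enteroendocrine and 6 smooth muscle markers, and for the 2 hepatocyte and 2 pancreatic acinar markers that passed the low-count filter.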
